A study of Mus musculus with 6 samples.

Results

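The genes described here are 10 heat shock protein genes, Hspa1a, Hspa1b, Hspa8, Hsph1, Hsp90aa1, Hsp90ab1, Dnajb1, Hspb1, Hspd1 and Hspe1, taken by their symbols from a table of 45777 genes. They were chosen as a set of inducible and constitutive heat shock genes. The rule used no measured value, but the set was proposed with earlier results of these data known. All 10 were among the 17210 genes with enough reads to be tested. RNA was sequenced from tumors of B16F10, a pigmented mouse melanoma cell line, grown in the hind footpad, which bears the weight of the animal, or in the skin of the flank, with 3 tumors per site and 1 library per tumor. The question of the comparison is how the transcriptome of melanoma cells grafted at a weight-bearing site differs from that of the same cells grafted at a site that bears no weight. The labels give Foxn1-/- hosts aged 8 weeks at both sites. Foxn1 is needed for the thymus to form, so such hosts lack most T cells but keep neutrophils and macrophages. The study grafted these cells into both C57BL/6J and Foxn1-null mice, and its text does not name the host of the sequenced tumors. No treatment is given for either group. The methods speak of isolated tumor cells without saying how, and the labels of removed tumors. Markers of host cells, given below, were present in every tumor, and in such mixed tissue fewer cells of a type and less RNA per cell cannot be told apart.

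Heat shock proteins are chaperones that bind unfolded or partly folded proteins. Cells make some of them all the time (Hspa8, Hsp90ab1) and others mostly under stress, when heat shock factor 1, Hsf1, binds heat shock elements in their promoters. The HSP70 proteins bind short stretches of unfolded chains under the direction of J-domain partners such as Dnajb1, and Hsph1 helps HSP70 to release its nucleotide. The HSP90 proteins act later, on signalling proteins and receptors. Hspd1 and Hspe1 build the folding chamber of the mitochondrion and its lid, and Hspb1 is a small chaperone that keeps proteins from clumping without using ATP.

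The promoters of the genes that differed most between the sites are shown first, since they carry the element through which heat shock genes are switched on. The sequences are from the RefSeq promoter table of GRCm38.p6, which matched 7 of the 10 genes. Hspa8, Hsp90aa1 and Hsp90ab1 had no entry there. Each line gives the 250 bases before the start of the gene, 5′ to 3′ on the strand of the gene, with matches to GAANNTTC or TTCNNGAA in capitals, where N is any base. These are the smallest forms of the heat shock element with 2 facing units, and each form reads the same on both strands. Hspa1a lies at chr17:34972157-34972406 on the minus strand, Hspa1b at chr17:34959239-34959488 on the minus strand and Hspb1 at chr5:135887669-135887918 on the plus strand. No annotated exon fell in these windows.
Hspa1a: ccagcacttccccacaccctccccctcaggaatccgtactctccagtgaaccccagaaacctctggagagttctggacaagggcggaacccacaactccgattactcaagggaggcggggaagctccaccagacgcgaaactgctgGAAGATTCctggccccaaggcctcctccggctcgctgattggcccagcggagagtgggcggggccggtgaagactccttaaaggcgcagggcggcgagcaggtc
Hspa1b: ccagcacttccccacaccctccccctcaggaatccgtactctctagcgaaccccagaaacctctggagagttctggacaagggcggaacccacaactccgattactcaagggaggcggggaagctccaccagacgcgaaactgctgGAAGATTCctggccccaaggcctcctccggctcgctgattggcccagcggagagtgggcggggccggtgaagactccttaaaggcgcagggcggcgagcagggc
Hspb1: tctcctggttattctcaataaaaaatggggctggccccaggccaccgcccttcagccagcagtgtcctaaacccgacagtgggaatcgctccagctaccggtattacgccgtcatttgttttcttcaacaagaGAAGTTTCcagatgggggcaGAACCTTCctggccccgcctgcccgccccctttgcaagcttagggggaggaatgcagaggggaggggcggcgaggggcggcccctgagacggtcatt

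Hspa1a and Hspa1b are neighbouring copies, with 10120 bases between the 2 genes, and their promoters were identical at 247 of 250 bases (98.8%). Counted from the first base printed, with the base of Hspa1a first, the differences were C44T, T47C and T249G. Both held a single GAANNTTC match that began 104 bases before the start of the gene. The Hspb1 promoter held 2 such matches, which began 117 and 97 bases before its start. Of 32851 promoters of the same length, 6.69% held GAANNTTC, 7.17% held TTCNNGAA and 12.8% held either. A match is a description of the sequence and was not tested for binding.

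Further stretches of 30 bases show such matches in other members. Hspd1 and Hspe1 are transcribed in opposite directions, with 215 bases between the start of Hspe1 and 1 of the 2 annotated starts of Hspd1, and the region between them held 4 alternating units in a row, TTC and GAA by turns with 2 bases between neighbours, over 18 bases that began 89 bases before the start of Hspe1. Only 4 of the 32851 promoters (0.0122%) held this longer form starting with TTC, which contains both of the shorter ones. The 4 include the overlapping windows of Hspd1 and Hspe1, which share these same 18 bases. In Hsph1 a TTCNNGAA match began 33 bases before an annotated start at 149636336. That match lies inside the span of the gene, which reaches to 149636498 on the minus strand. The stretch of Hspe1 lies at chr1:55088053-55088082 on the plus strand and that of Hsph1 at chr5:149636351-149636380 on the minus strand. An annotated exon of Hspd1, from 55087989 to 55088243, covers the stretch of Hspe1.
Hspe1: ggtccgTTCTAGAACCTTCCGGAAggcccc
Hsph1: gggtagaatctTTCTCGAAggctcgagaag

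Neither of the 2 windows of Dnajb1 in the table held these letters. The window from 83608298 to 83608547 lies inside the span of the gene, so only the other lies before it. Whether a match goes with the direction of the difference between the sites cannot be told here, since Dnajb1 was the only gene with an entry and no match. Hspa1a, Hspa1b, Hspb1, Hsph1, Hspd1 and Hspe1 all held one, Hspd1 in only 1 of its 2 windows. The fold changes of these genes, given below, ran in both directions.

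Values are given as CPM, read counts relative to the size of the library after TMM scaling, in footpad replicates 1, 2 and 3 and then in flank replicates 1, 2 and 3. The sites were compared by the quasi-likelihood test of edgeR, adjusted by Benjamini-Hochberg over all 17210 genes, and a gene was called at an adjusted p under 0.05. Log2 fold changes are footpad over flank, with their standard error. Libraries held between 46529649 and 66364366 reads on genes, so that 3 reads, taken as the limit of detection, equalled 0.0438 to 0.0673 CPM, far below every member. Tumors of a site differed by more than counting error, with a chi-square of 63.0 to 581 per gene. The study gives the number of mice for these data as that of the tumors at a site and describes grafts placed at both sites at the same time, so a footpad and a flank tumor may share a mouse, but no label ties a tumor to an animal. Markers of melanocytes were present in every tumor and summed to between 13990 and 29776 CPM.

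**Figure D1:**
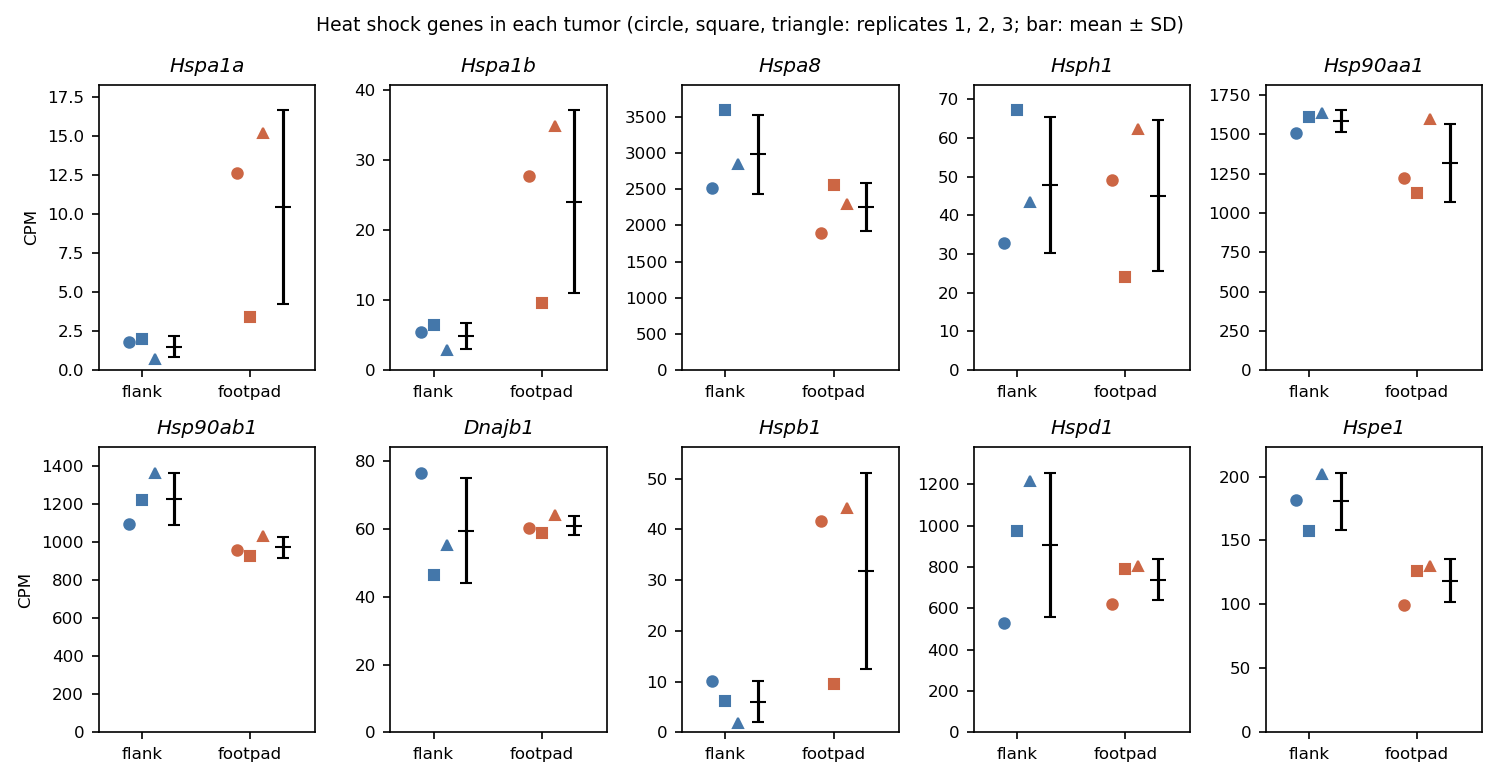
Read level (CPM, linear axes from 0) of each heat shock gene in the 3 flank and 3 footpad tumors, where circles, squares and triangles are replicates 1, 2 and 3 and bars are the mean ± SD. Hspa1a and Hspa1b lay higher in all 3 footpad tumors, Hspe1 and Hsp90ab1 lay lower in all 3, and the other 6 genes overlapped between the sites.

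The stress-inducible HSP70 genes rose in footpad tumors, Hspa1a 6.89-fold and Hspa1b 4.87-fold, while the HSP70 gene that is always on, Hspa8, did not pass the test and had a lower mean there. Hspb1 had a fold change of similar size to those of the inducible pair but did not pass. The 5 abundant members, Hspa8, Hsp90aa1, Hsp90ab1, Hspd1 and Hspe1, all had negative fold changes, and none passed. In all, edgeR called 2 of the 10 genes, where it called 4.87% of all genes tested. The 2 are near-identical copies whose reads are hard to tell apart, so here and in the counts that follow they are not independent. Higher were 2, where 3.43% of all genes were, and lower were 0, where 1.44% of all genes were. At an unadjusted p under 0.05 in edgeR there were 3 higher (Hspa1a, Hspa1b and Hspb1), where 14.8% of all genes were, and 1 lower (Hspe1), where 10.5% of all genes were. DESeq2, the tool the study used, called those 3 higher and that 1 lower at an adjusted p under 0.05, while it called 15.9% of all genes tested, 9.79% as higher and 6.07% as lower. With the study's second criterion, a fold change of 2 or more, edgeR still called Hspa1a and Hspa1b (3.76% of all genes) and DESeq2 still called Hspa1a, Hspa1b and Hspb1 (8.75% of all genes). The median log2 fold change of the 10 genes was -0.18, against -0.00 over all genes tested.

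Hspa1a encodes an HSP70 protein that is scarce in unstressed cells. Its gene lies on chromosome 17 from 34969359 to 34972156. It had 12.6, 3.43 and 15.2 CPM in the footpad tumors and 1.81, 1.98 and 0.735 CPM in the flank tumors. Footpad replicates 1 and 3 were high, footpad replicate 2 was much closer to the flank tumors, and the groups did not overlap. The means were 10.4 ± 6.20 and 1.51 ± 0.677 CPM (SD, n = 3 each), a log2 fold change of 2.79 ± 0.62 (SE) with an adjusted p of 0.0482 from edgeR and 2.2e-05 from DESeq2. Without overlap, footpad tumors lay higher in 17.6% of all genes tested and lower in 14.9%, or 32.5% in all.

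Hspa1b, its neighbour from 34956429 to 34959238, encodes a nearly identical HSP70 protein. The footpad tumors had 27.8, 9.58 and 34.9 CPM and the flank tumors 5.45, 6.48 and 2.89 CPM. The order of the 6 tumors was the same as for Hspa1a. Its means were 24.1 ± 13.1 and 4.94 ± 1.85 CPM (SD, n = 3 each), a log2 fold change of 2.28 ± 0.50 (SE) with an adjusted p of 0.0477 from edgeR and 2.8e-05 from DESeq2.

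The calls of both genes by edgeR were close to the threshold. With upper-quartile scaling the adjusted p was 0.0506 for Hspa1a and 0.0502 for Hspa1b, and with limma on log2(FPKM + 1) it was 0.0740 and 0.0692, so that neither was called. Neither was called with the replicate number as a block. Both calls were also lost in every edgeR fit without 1 tumor, except the fit without footpad replicate 2. For Hspa1a the adjusted p was 0.151 without footpad replicate 1, 0.151 without footpad replicate 3, 0.0903 without flank replicate 1, 0.0868 without flank replicate 2, 0.141 without flank replicate 3 and 0.0197 without footpad replicate 2. The same values for Hspa1b were 0.151, 0.150, 0.0932, 0.0795, 0.144 and 0.0194. Calls over all genes tested changed as well, from 838 with all tumors in edgeR. They numbered 31, 987 and 0 without footpad replicates 1, 2 and 3. Without flank replicates 1, 2 and 3 they numbered 388, 553 and 46. DESeq2 kept both genes whichever tumor was left out, with an adjusted p of at most 0.00755 for Hspa1a and 0.00749 for Hspa1b. The log2 fold change stayed between 2.41 and 3.20 for Hspa1a and between 1.92 and 2.66 for Hspa1b in the edgeR fits without a tumor.

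Reads of these 2 genes are hard to tell apart. Their coding sequences matched at 1918 of 1926 aligned bases (99.6%), and 68.1% of the stretches of 100 bases in the coding sequence of Hspa1a occurred without a change in Hspa1b. Over the whole transcript that share was 47.1%. How the authors assigned reads that match both genes is not given in the sources used here, so the split between them is uncertain. The table held 2.20 to 3.93 Hspa1b reads for each Hspa1a read. Summed to a single gene before the fit, the pair had 40.4, 13.01 and 50.1 CPM in footpad tumors and 7.26, 8.47 and 3.63 CPM in flank tumors, a log2 fold change of 2.42 with an adjusted p of 0.0456 from edgeR. Hspa1a shares no stretch of 100 coding bases with Hspa8, to which it was 74.5% identical. Hspa1b was not compared with Hspa8.

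Hspb1, the small heat shock protein, lies on chromosome 5 from 135887919 to 135889563 and had 41.7, 9.55 and 44.2 CPM in footpad tumors and 10.1, 6.23 and 1.89 CPM in flank tumors. As for the HSP70 pair, footpad replicates 1 and 3 were high and footpad replicate 2 was low, here below flank replicate 1, so that the groups overlapped. The means were 31.8 ± 19.3 and 6.08 ± 4.13 CPM (SD, n = 3 each), and the log2 fold change was 2.39 ± 0.72 (SE). Its adjusted p was 0.0945 from edgeR, and 0.0443 without footpad replicate 2. With DESeq2 it was 0.0417, but 0.231 without footpad replicate 1 and 0.126 without flank replicate 2. No other member varied as much within both sites, with a range of 4.63-fold among footpad tumors and 5.38-fold among flank tumors.

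The sums of host cell markers varied among the tumors, and some were low where these 3 genes were low while others were not. The 12 neutrophil markers, of which 10 were tested and none was at 0 in all tumors, summed to 408, 8.58 and 195 CPM in footpad tumors and 20.9, 32.8 and 4.89 CPM in flank tumors. That sum was low in footpad replicate 2 and in flank replicate 3, as were Hspa1a, Hspa1b and Hspb1, but unlike them it was highest in footpad replicate 1. The 10 macrophage markers summed to 264 to 296 CPM in footpad and 34.7 to 188 CPM in flank tumors, and the 14 fibroblast markers, of which 9 were called higher by edgeR, to 2872 to 3898 and 154 to 490 CPM. The 11 endothelial markers summed to 392 to 470 and 229 to 275 CPM. Footpad replicate 2 stood apart with 1455 CPM of 16 keratinocyte markers, against 19.3 to 88.2 CPM in the other tumors, and 1421 CPM of 16 skeletal muscle markers, against 43.5 to 258 CPM. The 6 erythroid markers summed to 36473, 3961 and 17881 CPM in footpad tumors and 30993, 3562 and 1929 CPM in flank tumors. Schwann cell markers (8 genes) lay between 223 and 296 CPM and adipocyte markers (8 genes) between 20.3 and 48.8 CPM. The part of these cells in the differences of the heat shock genes was not tested.

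The constitutive HSP70 and its helpers showed no call. Hspa8, on chromosome 9 from 40801276 to 40805202, makes the HSP70 that folds new proteins and strips clathrin from vesicles. It had 1896, 2554 and 2298 CPM in footpad tumors and 2513, 3587 and 2843 CPM in flank tumors. Flank replicate 2 was the highest and footpad replicate 1 the lowest, and the sites overlapped. The means of 2249 ± 332 and 2981 ± 550 CPM (SD, n = 3 each) gave a log2 fold change of -0.41 ± 0.21 (SE) with an adjusted p of 0.275 from edgeR.

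Dnajb1, the J-domain partner that starts the HSP70 cycle under stress, is itself a heat-inducible gene and lies on chromosome 8 from 83608175 to 83612653. Its levels were 60.3, 58.7 and 64.0 CPM in footpad tumors and 76.5, 46.4 and 55.3 CPM in flank tumors. The footpad tumors were close to one another and sat within the range of the flank tumors (log2 fold change 0.04 ± 0.19 (SE), adjusted p = 0.922 from edgeR). Hsph1, the HSP110 that helps HSP70 exchange its nucleotide, is also heat-inducible and lies on chromosome 5 from 149616843 to 149636498. It had 49.1, 24.0 and 62.2 CPM in footpad tumors and 32.9, 67.1 and 43.3 CPM in flank tumors, with footpad replicate 2 the lowest of all 6 (log2 fold change -0.08 ± 0.38 (SE), adjusted p = 0.911 from edgeR). Thus, of the 4 heat-inducible genes of the HSP70 system in the set, Hspa1a and Hspa1b were called and Dnajb1 and Hsph1 had fold changes smaller than their standard errors. The sign of both turned when single tumors were left out. Without footpad replicate 2 the log2 fold change of Hsph1 was 0.22, and without flank replicate 2 it was 0.24. For Dnajb1 it was -0.12 without flank replicate 2 and -0.02 without flank replicate 3.

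The HSP90 genes of the set encode the 2 forms of the cytosol, Hsp90aa1, the more inducible form, on chromosome 12 from 110691036 to 110696395, and Hsp90ab1, the constitutive form, on chromosome 17 from 45567778 to 45573261. Hsp90aa1 had 1220, 1130 and 1598 CPM in footpad tumors and 1506, 1611 and 1635 CPM in flank tumors. Only footpad replicate 3 reached the flank tumors (log2 fold change -0.27 ± 0.19 (SE), adjusted p = 0.407 from edgeR). Hsp90ab1 had 960, 928 and 1033 CPM in footpad tumors and 1094, 1223 and 1366 CPM in flank tumors. All 3 footpad tumors lay below all 3 flank tumors, yet the difference did not pass the test (log2 fold change -0.33 ± 0.16 (SE), adjusted p = 0.238 from edgeR). Footpad tumors lay lower without overlap in 14.9% of all genes.

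The mitochondrial chaperonin genes had lower means in footpad tumors. Hspe1, the lid of the folding chamber, on chromosome 1 from 55088148 to 55091317, had 99.3, 127 and 130 CPM in footpad tumors and 182, 157 and 202 CPM in flank tumors, with no overlap. The means of 119 ± 16.7 and 181 ± 22.4 CPM (SD, n = 3 each) corresponded to a fitted level 1.52-fold lower in footpad tumors. Its log2 fold change of -0.61 ± 0.16 (SE) had an adjusted p of 0.0726 from edgeR and 0.00755 from DESeq2, which without flank replicate 3 was 0.0641. Hspd1, the chamber itself, from 55077833 to 55088243, had 623, 791 and 805 CPM in footpad tumors and 530, 977 and 1217 CPM in flank tumors. Flank replicate 1 was the lowest of all 6 tumors and flank replicate 3 the highest (log2 fold change -0.30 ± 0.30 (SE), adjusted p = 0.571 from edgeR). The table listed 5 processed copies of Hspd1 and Hspe1 as genes of their own. The most read of them, Hspd1-ps3, took reads equal to 1.27% to 1.56% of those of Hspd1.

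Without flank replicate 1, DESeq2 called 7 of the 10 genes and 18.7% of all genes tested, the most of its fits. The additional ones, all lower, were Hspa8 (adjusted p = 0.0362), Hsp90ab1 (adjusted p = 0.00440) and Hspd1 (adjusted p = 0.0128). EdgeR called none of those 3 in that fit or in any other fit without a tumor.

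**Figure D2:**
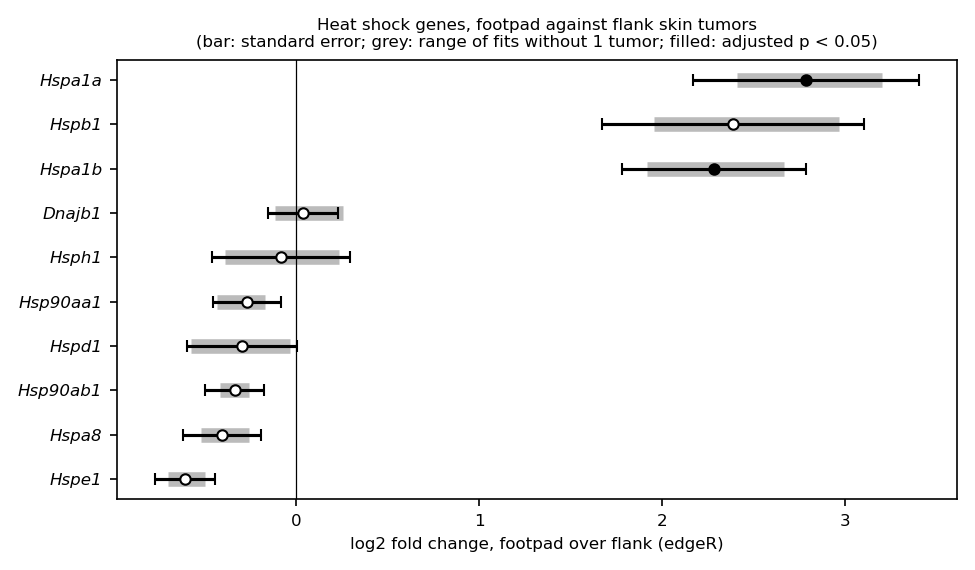
Log2 fold change of each heat shock gene, footpad over flank, from edgeR, with its standard error as a black bar and the range over the 6 fits that leave out 1 tumor in grey. Filled points, Hspa1a at 2.79 and Hspa1b at 2.28, passed an adjusted p under 0.05; Hspb1 at 2.39 did not, and the lowest is Hspe1 at -0.61.

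Levels of different genes are compared per length, as the FPKM values that the authors deposited. Hspa8 was the most abundant member at both sites, with 958 ± 203 FPKM in footpad and 1277 ± 344 FPKM in flank tumors (SD, n = 3 each). It was followed by Hsp90aa1 (411 ± 86.6 and 497 ± 58.7 FPKM), Hsp90ab1 (346 ± 30.6 and 438 ± 70.3 FPKM), Hspd1 (281 ± 56.2 and 348 ± 145 FPKM) and Hspe1 (138 ± 27.9 and 209 ± 21.8 FPKM). The ranges of Hsp90aa1 and Hsp90ab1 overlapped at both sites, as did those of Hsp90ab1 and Hspd1, although within each of the 6 tumors the first was above the second. Hspd1 and Hspe1 overlapped in flank tumors only.

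After a wide gap came the less abundant members, whose order changed with the site. In footpad tumors Hspb1 (30.8 ± 18.4 FPKM) stood sixth, ahead of Dnajb1 (18.0 ± 1.49 FPKM), with which it overlapped. In flank tumors Hspb1 (5.90 ± 3.73 FPKM) stood eighth, behind Dnajb1 (17.3 ± 3.06 FPKM) and Hsph1 (12.5 ± 5.61 FPKM), and it overlapped with Hsph1 and with Hspa1b. Hspa1b (7.54 ± 4.08 and 1.58 ± 0.661 FPKM) and Hspa1a (3.26 ± 1.94 and 0.480 ± 0.229 FPKM) were the lowest of the 10 genes at both sites. They overlapped with each other in footpad tumors, and Hspa1b overlapped there with Hsph1 (11.5 ± 4.97 FPKM).

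**Figure D3:**
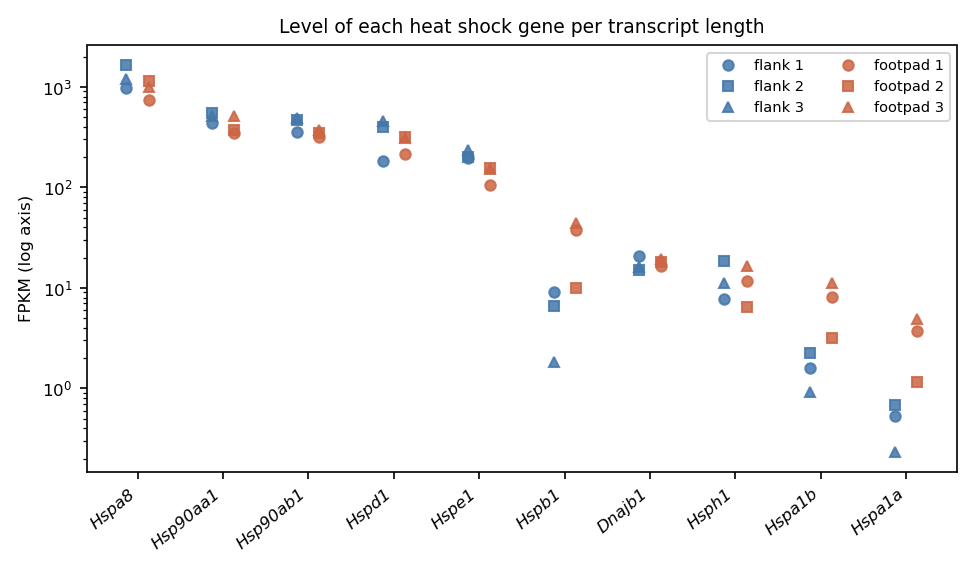
FPKM as deposited (log axis) of each heat shock gene in each tumor, with genes ordered from left to right by their mean over the 6 tumors. Hspa8 reached 739 to 1653 FPKM, while Hspa1a stayed between 0.231 and 4.95 FPKM, so the genes with the largest differences between the sites were among the least abundant.

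The rise of the inducible pair was small against the total. The 10 genes summed to 4991, 5635 and 6084 CPM in footpad tumors and 5952, 7682 and 7367 CPM in flank tumors, or 0.478% to 0.824% of the reads on genes. The summed level in footpad tumors was 0.796 times that in flank tumors (two-sided exact permutation test over the tumors, p = 0.2, where the smallest p that 3 tumors against 3 allow is 0.1). Hspa8, Hsp90aa1, Hsp90ab1 and Hspd1 made up 94.8% of the summed footpad level. Hspa1a and Hspa1b together added 34.5 ± 19.2 CPM in footpad and 6.45 ± 2.52 CPM in flank tumors (SD, n = 3 each).

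Ratios within a tumor do not depend on the scaling between libraries, and 4 of them were compared with two-sided exact permutation tests, adjusted over the 4. Reads of Hspa1a and Hspa1b together equalled 2.13%, 0.509% and 2.18% of the reads of Hspa8 in footpad tumors and 0.289%, 0.236% and 0.128% in flank tumors. This ratio was 2.70 higher on the log2 scale in footpad tumors and did not overlap (exact p = 0.1, the smallest possible here, adjusted p = 0.4). Dnajb1 relative to Hspa8 was 0.47 higher on the log2 scale in footpad tumors, with overlap (exact p = 0.3, adjusted p = 0.4). The ratio of Hsp90aa1 to Hsp90ab1 lay between 1.20 and 1.55 in all tumors and differed by 0.05 on the log2 scale (exact p = 0.8, adjusted p = 0.8).

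The ratio of Hspd1 to Hspe1, whose starts share the short region shown above, was nearly the same in 5 of the 6 tumors. It was 6.28, 6.25 and 6.21 reads of Hspd1 per read of Hspe1 in the footpad tumors and 6.21 and 6.02 in flank replicates 2 and 3. Flank replicate 1 stood apart with 2.91. On the log2 scale the sites differed by 0.39 (exact p = 0.2, adjusted p = 0.4), and by 0.03 without flank replicate 1. Each tumor was also set against the mean log2 CPM of the other tumors of its site. On that scale Hspd1 was at -1.04 in flank replicate 1, while Hspe1 was at 0.03. Hspe1 has the shortest transcript of the set, with 860 bases implied by its FPKM against 2636 for Hspd1. Genes under 1000 bases stood 0.36 above genes of 4000 bases or more on the same scale in that tumor, and -0.39 to 0.24 in the other tumors. The part of transcript length in the ratio was not tested.

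**Figure D4:**
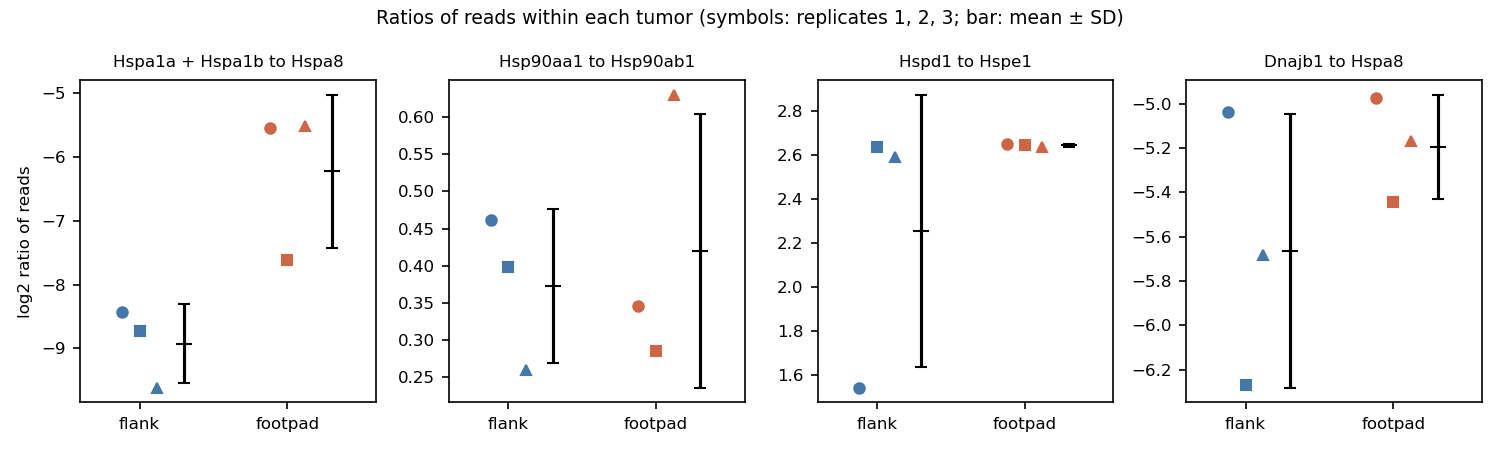
Log2 ratio of reads of the named genes within each tumor, by site, where circles, squares and triangles are replicates 1, 2 and 3 and bars are the mean ± SD; the 4 panels have different axes that do not start at 0. The ratio of Hspa1a plus Hspa1b to Hspa8 separates the sites, and that of Hspd1 to Hspe1 lies between 2.59 and 2.65 in every tumor but flank replicate 1, at 1.54.

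Most members ranked the 3 footpad tumors alike. In the footpad, 7 of the 10 genes were highest in replicate 3, then replicate 1, then replicate 2, an order found in 12.8% of all genes tested, and 9 of the 10, all but Hspa8, were highest in replicate 3, as were 26.2% of all genes. The spread of log2 CPM among footpad tumors was largest for Hspb1 (SD 1.25), Hspa1a (SD 1.17), Hspa1b (SD 0.99) and Hsph1 (SD 0.71) and smallest for Dnajb1 (SD 0.06) and Hsp90ab1 (SD 0.08). Among flank tumors it was largest for Hspb1 (SD 1.24) and smallest for Hsp90aa1 (SD 0.06), and no order of the 3 flank tumors was shared by more than 3 of the 10 genes.

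The rest of the chaperone network was examined with 15 lists of genes beside the 10, counted against the 3.43% of all genes called higher and the 1.44% called lower by edgeR. The same shares were 14.8% and 10.5% at an unadjusted p under 0.05 in edgeR and 9.79% and 6.07% for DESeq2 calls, and 50.3% of all genes had a negative fold change. The factors and regulators of the heat shock response had 6 tested members. Ier5, a stress-induced partner of heat shock factor 1, was called higher, with 24.0, 10.9 and 18.6 CPM in footpad and 2.98, 6.77 and 6.09 CPM in flank tumors (log2 fold change 1.75 ± 0.39 (SE), adjusted p = 0.04997 from edgeR). Hsf1 itself had 14.2 to 22.6 CPM in footpad and 17.9 to 20.7 CPM in flank tumors (adjusted p = 0.810 from edgeR). It was looked up after the calls were seen.

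Among 21 other genes that heat shock factor 1 is known to induce, 3 were called higher and 0 lower, with a median log2 fold change of -0.11. The 3 were Ier5, Dnaja4 and Cryab. Of the 21, 9 had positive and 12 negative fold changes, where 50.3% of all genes were negative. The lowest was Chordc1 at -0.67. Some of the 21, among them Chordc1 and Fkbp4, are also in the list of co-chaperones below. Dnaja4, a J-domain protein, had 7.07, 5.89 and 4.74 CPM in footpad and 2.54, 1.44 and 0.959 CPM in flank tumors (adjusted p = 0.0466 from edgeR). Cryab, the small heat shock protein alpha-B crystallin, had 124, 117 and 123 CPM in footpad and 83.1, 88.7 and 78.0 CPM in flank tumors (log2 fold change 0.54 ± 0.12 (SE), adjusted p = 0.0466 from edgeR). Unlike Hspa1a and Hspb1, Cryab was as high in footpad replicate 2 as in the others. At an unadjusted p under 0.05 in edgeR, 8 of the 21 were higher (14.8% of all genes) and 4 lower (10.5% of all genes). DESeq2 called 6 higher (9.79% of all genes) and 3 lower (6.07% of all genes).

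The families of the members were mostly without calls. Of 11 other HSP70 and HSP110 genes, 0 passed in edgeR or DESeq2, and 2 were higher and 2 lower at an unadjusted p under 0.05 in edgeR. Hspa1l, which lies beside the inducible pair in the genome, had few reads, with 0.204 to 0.408 CPM in footpad and 0.0959 to 0.137 CPM in flank tumors (log2 fold change 1.40 ± 0.56 (SE), adjusted p = 0.174 from edgeR). Hspa5, the HSP70 of the endoplasmic reticulum, had 1036 to 1068 CPM in footpad and 1079 to 1206 CPM in flank tumors (adjusted p = 0.698 from edgeR). Of the other HSP90 genes, Trap1 and Hsp90b1, 0 passed in edgeR. Hsp90b1, the HSP90 of the endoplasmic reticulum, had 698 to 799 CPM in footpad and 892 to 1093 CPM in flank tumors (log2 fold change -0.39 ± 0.16 (SE), adjusted p = 0.175 from edgeR), the only 1 of these genes with an unadjusted p under 0.05 in edgeR and the only 1 called lower by DESeq2. Of 7 other small heat shock proteins tested, Cryab alone was called by edgeR. At an unadjusted p under 0.05 in edgeR, 3 were higher (14.8% of all genes) and 0 lower. DESeq2 called 2 higher (9.79% of all genes), Cryab and Hspb8. Hspb8 had 83.9, 59.7 and 78.2 CPM in footpad and 55.5, 30.3 and 35.8 CPM in flank tumors (adjusted p = 0.0833 from edgeR and 0.0108 from DESeq2). Hspb7, a small heat shock protein of heart and skeletal muscle, had 1.91, 4.07 and 0.735 CPM in footpad and 1.00, 0.479 and 0.288 CPM in flank tumors and was highest in footpad replicate 2, where the sum of the muscle markers was also highest (adjusted p = 0.147 from edgeR).

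The J-domain proteins other than Dnajb1 gave 2 calls in each direction among 43 tested genes. Higher were Dnaja4 and Gak, a kinase that helps Hspa8 to uncoat clathrin vesicles (80.6 to 91.7 CPM in footpad and 52.5 to 57.0 CPM in flank tumors, adjusted p = 0.0352 from edgeR). Lower were Dnajc6, auxilin, with the same role in neurons (0.718, 1.58 and 0.837 CPM in footpad and 7.59, 3.83 and 5.86 CPM in flank tumors, log2 fold change -2.45 ± 0.42 (SE), adjusted p = 0.0270 from edgeR), and Dnajc8, a J-domain protein of the splicing machinery (32.1 to 41.1 and 58.8 to 60.3 CPM, adjusted p = 0.0363 from edgeR). Thus Gak and Dnajc6, which act on the same step with Hspa8, had opposite signs. As with all edgeR calls, these were absent without footpad replicate 3.

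Among the co-chaperones of HSP90 and HSP70, 0 of 22 passed in edgeR, 20 of 22 had negative fold changes (50.3% of all genes), and all 8 with an unadjusted p under 0.05 were lower (10.5% of all genes). The median was -0.23. DESeq2 called 4 lower and 0 higher. In 10 of the 22 the footpad tumors lay below the flank tumors without overlap, against 14.9% of all genes tested. Chordc1, a co-chaperone of HSP90, had 24.1, 27.4 and 34.5 CPM in footpad and 43.1, 49.7 and 43.7 CPM in flank tumors (adjusted p = 0.0610 from edgeR). Fkbp4, which brings HSP90 to steroid receptors, had 256 to 333 CPM in footpad and 368 to 566 CPM in flank tumors (adjusted p = 0.102 from edgeR). Of 10 nucleotide exchange factors of HSP70, 0 passed in edgeR or DESeq2 and 1, Bag3, was higher at an unadjusted p under 0.05 in edgeR. Bag3, which is itself induced by heat, had 37.1, 22.3 and 30.2 CPM in footpad and 18.6, 20.4 and 20.0 CPM in flank tumors (log2 fold change 0.60 ± 0.20 (SE), adjusted p = 0.116 from edgeR), and Bag1 had 129 to 171 and 122 to 145 CPM (adjusted p = 0.653 from edgeR).

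Larger folding machines also had no call. All 8 subunits of the cytosolic chaperonin TRiC had negative fold changes, with a median of -0.15, but 0 had an unadjusted p under 0.05 in edgeR and 0 passed in edgeR or DESeq2. Cct6a had the largest difference (388 to 468 CPM in footpad and 473 to 586 CPM in flank tumors, adjusted p = 0.317 from edgeR), and Cct7, the most abundant, had 598 to 785 and 608 to 855 CPM (adjusted p = 0.941 from edgeR). Of 6 prefoldin subunits, which hand actin and tubulin to TRiC, 0 passed in edgeR, 2 were lower at an unadjusted p under 0.05, and DESeq2 called 1, Vbp1, lower (86.5 to 119 CPM in footpad and 133 to 159 CPM in flank tumors, adjusted p = 0.0893 from edgeR). Among 31 proteasome subunits, 28 had negative fold changes, with a median of -0.22. Of these 0 passed in edgeR, 4 were lower at an unadjusted p under 0.05, and DESeq2 called 1, Psma5, lower (52.7 to 69.4 CPM in footpad and 81.4 to 99.1 CPM in flank tumors, adjusted p = 0.112 from edgeR). Psmd8, the most abundant of them, had 436 to 609 and 312 to 653 CPM (adjusted p = 0.675 from edgeR).

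Other stress responses were examined beside the cytosolic one. Of 20 genes of endoplasmic reticulum stress, 0 passed in edgeR, 1 was higher and 3 lower at an unadjusted p under 0.05, and DESeq2 called 1 higher and 2 lower. Pdia4, a disulfide isomerase, had 198 to 319 CPM in footpad and 381 to 440 CPM in flank tumors (adjusted p = 0.0957 from edgeR), and the lectin chaperone Canx had 894 to 1371 and 1275 to 1718 CPM (adjusted p = 0.397 from edgeR). The 13 genes of the integrated stress response, which Atf4 drives when translation is slowed, had a median of -0.69. Of these, 0 passed in edgeR, 7 were lower and 1 higher at an unadjusted p under 0.05, and DESeq2 called 6 lower and 1 higher. Phgdh, the first enzyme of serine synthesis, had 58.2, 85.2 and 58.1 CPM in footpad and 104, 140 and 262 CPM in flank tumors (log2 fold change -1.33 ± 0.34 (SE), adjusted p = 0.0666 from edgeR), and Atf4 had 120 to 150 and 137 to 271 CPM (adjusted p = 0.142 from edgeR). Of 12 genes of mitochondrial protein quality control, 0 passed in edgeR or DESeq2 and 0 had an unadjusted p under 0.05. Hspa9, the mitochondrial HSP70, had 731 to 832 CPM in footpad and 657 to 1033 CPM in flank tumors (adjusted p = 0.989 from edgeR), and the protease Yme1l1 had 205 to 249 and 256 to 336 CPM (adjusted p = 0.247 from edgeR).

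The immediate early genes, which answer many stimuli quickly, had 3 calls higher and 0 lower among 19, with a median of 0.65. Egr3 had 5.21, 1.79 and 1.86 CPM in footpad and 0.276, 0.274 and 0.192 CPM in flank tumors (log2 fold change 3.57 ± 0.55 (SE), adjusted p = 0.0214 from edgeR). Fosb (1.84 to 3.73 and 0.445 to 0.621 CPM, adjusted p = 0.0321 from edgeR) and Junb (37.1 to 63.5 and 25.6 to 26.7 CPM, adjusted p = 0.0393 from edgeR) were the others. All 3 were highest in footpad replicate 1, where the HSP70 pair was highest in footpad replicate 3.

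**Figure D5:**
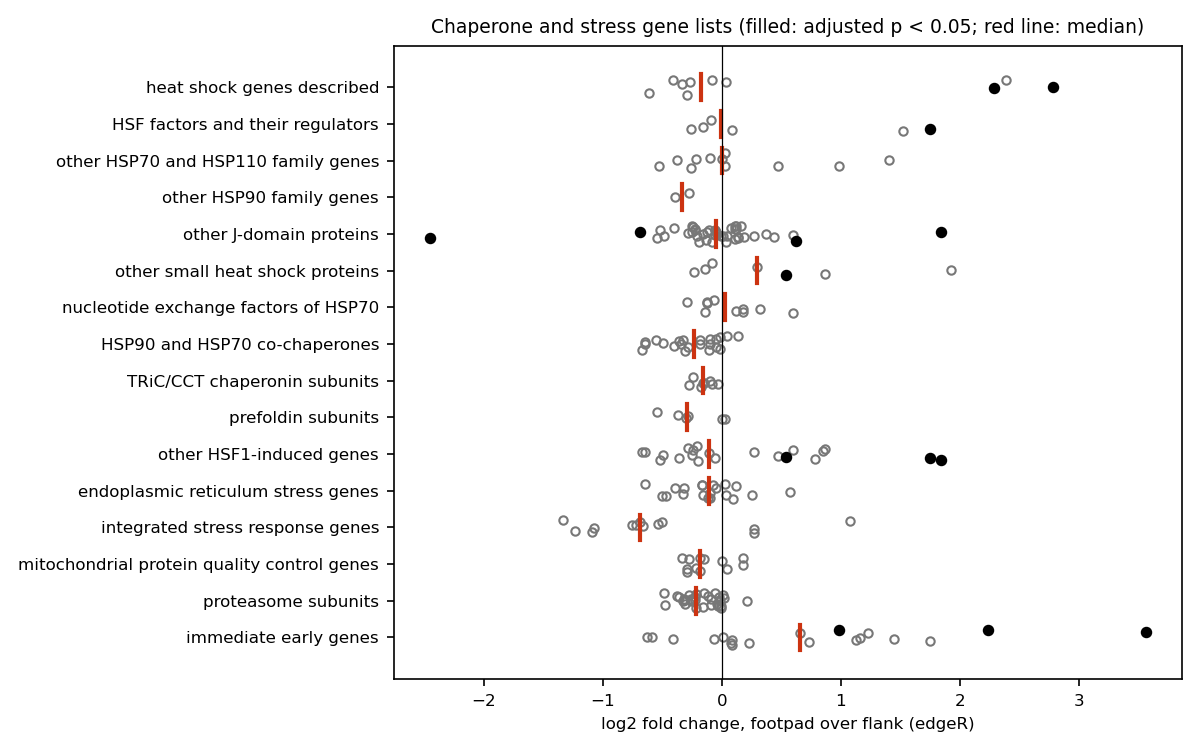
Log2 fold change, footpad over flank, of every tested gene of the 10 heat shock genes and of 15 other lists of chaperone and stress genes; filled points passed an adjusted p under 0.05 in edgeR and red lines are medians. Hspa1a, Hspa1b, Ier5 and Dnaja4 lie at the right, but the 21 other genes induced by heat shock factor 1, which include Ier5 and Dnaja4, have a median of -0.11. The medians of the co-chaperones, chaperonin and proteasome subunits lie between -0.23 and -0.15.

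Genes outside all lists were ranked by how closely their log2 CPM, centred over the 6 tumors, followed the mean profile of Hspa1a, Hspa1b, Dnajb1 and Hsph1. Among 9239 genes with a mean of at least 10 CPM, the 5 closest were Slfn5, Myof, Peak1, Timp1 and Fxyd5, with root mean square differences between 0.22 and 0.26 on the log2 scale. Since that profile averages 2 genes that rose with 2 that did not pass, the pair Hspa1a and Hspa1b was also used alone, a choice made after the values were seen. The closest genes were then Tgm2 (0.41), Cfb (0.45), Il4ra (0.45), Arg1 (0.46) and Srgn (0.46). Hspb1 was as close (0.41), while the other 7 members lay between 1.35 and 1.72 from the pair.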

How the data were processed

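RNA of 3 footpad and 3 flank skin B16F10 tumors was analysed, 1 library each, grouped by the sample titles. The methods and the processing notes name FastQC 0.11.7, Trimmomatic and HISAT2 2.1.0 with the mm10 genome. The authors deposited raw counts of reads on each gene, as whole numbers, and FPKM, in which they corrected for transcript length and library size. How reads were counted, and where reads with more than 1 match went, is not given in the sources used here. The libraries were stranded. No column of the count table was left without a sample. The 10 genes were found by symbol, and 45679 of 45777 gene identifiers matched RefSeq on GRCm38.p6, from which coordinates were taken.

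The main test used edgeR 4.0.16 in R 4.3.3 (TMM scaling, the default filterByExpr filter, then glmQLFit and glmQLFTest), with Benjamini-Hochberg adjustment over 17210 genes. Depth was 46529649 to 66364366 reads per tumor, and the common biological coefficient of variation was 0.338. Standard errors were derived as the absolute log2 fold change over the root of F. Sums and ratios were compared with two-sided exact permutation tests over the 6 tumors. Alternatives were DESeq2 1.42.0, upper-quartile scaling, no filter, at least 10 counts in each tumor, limma 3.58.1 on log2(FPKM + 1) and log2(FPKM + 0.1), the replicate number as a block, the sum of Hspa1a and Hspa1b, FPKM in place of counts in the ratios, and leaving out each tumor. DESeq2 without each tumor was added after the results of edgeR without each tumor were seen. The fits were tested on simulated data. Other values and the plots came from Python 3.11.15 (scipy 1.17.1, Biopython 1.88, matplotlib 3.10.9, pandas 2.3.3).

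The members, the 15 other gene lists, the 10 cell type lists and the tests were chosen with earlier results of these data known. From each other gene list the text names every called gene, up to 6, the gene with the largest difference and, in lists without a call, the most abundant gene. A few further genes, such as Hsf1 and Hspb8, are named beside these. Coding identity compared RefSeq open reading frames by pairwise alignment. No protein sequence was used here.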

Additional observations from a re-analysis of the deposited data

How the results depend on the processing

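Of 268 values under an alternative, 202 kept their direction and side of the threshold, or their size where there was no threshold, and 66 did not: 25 counts moved by over 1.5 times, 16 values lost their call, 15 gained one and 10 changed sign. The number of genes called was 838 in edgeR, 2729 with DESeq2 and 0 with the replicate block, 0 to 987 without single tumors in edgeR and 1570 to 3214 without single tumors in DESeq2 (1599, 2878 and 1570 without footpad replicates 1, 2 and 3, and 3214, 2688 and 1851 without flank replicates 1, 2 and 3). Of the 10 heat shock genes, 2 were called in edgeR, 4 with DESeq2, and 0 with upper-quartile scaling, with limma on log2(FPKM + 1) and with the replicate block. Without single tumors, 0 to 3 were called in edgeR and 3 to 7 in DESeq2.

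The log2 fold change of Hspa1a was 2.81 with upper-quartile scaling (adjusted p = 0.0506), 1.41 with limma on log2(FPKM + 1) (adjusted p = 0.0740), a scale that understates the change of low genes, and 2.66 with the replicate block (adjusted p = 0.146). Hspa1b had 2.30 (adjusted p = 0.0502), 1.63 (adjusted p = 0.0692) and 2.18 (adjusted p = 0.145) in the same 3 fits. Without single tumors the log2 fold change was 2.41 to 3.20 in edgeR and 2.42 to 3.21 in DESeq2 for Hspa1a, and 1.92 to 2.66 and 1.93 to 2.67 for Hspa1b. Hspb1 passed with DESeq2 at 2.39 and had 1.95 to 2.97 in edgeR and 1.96 to 2.97 in DESeq2 without single tumors (2.83 without footpad replicate 2 and 2.09 without footpad replicate 3). Hspe1 passed with DESeq2 at -0.60 and had -0.70 to -0.50 and -0.70 to -0.49 without single tumors (-0.65 without footpad replicate 2 and -0.67 without footpad replicate 3 in DESeq2). In the same order, Hspa8 had -0.52 to -0.26 and -0.52 to -0.25, Hsp90ab1 -0.42 to -0.26 and -0.41 to -0.26, Hspd1 -0.57 to -0.03 in both, Hsph1 -0.39 to 0.24 and -0.38 to 0.24 (0.22 without footpad replicate 2), and Dnajb1 -0.12 to 0.26 and -0.11 to 0.26 (-0.017 without flank replicate 3 in DESeq2). The sign of the ratio of Hsp90aa1 to Hsp90ab1 also turned without single tumors, with a range of -0.058 to 0.11. The cause of these changes was not tested.

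The study describes grafts at both sites at the same time, but nothing in the labels ties the replicate numbers used in the block to an animal. Deviations of tumors with the same number correlated at 0.06, -0.10 and -0.12, and those with different numbers at -0.21 to 0.27. With 3 tumors per site this cannot tell whether tumors of the same number shared a mouse. The main fit had no block, and the fit with the block is given above. With 3 tumors per site no permutation test could reach a p below 0.1, and reads of Hspa1a and Hspa1b could not be separated with certainty.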
